A study of Mus musculus with 12 samples.

Results

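DOCK proteins (dedicator of cytokinesis) are guanine nucleotide exchange factors, which load small GTPases with GTP. Dock1, Dock2, Dock4 and Dock5 act on Rac, Dock1, Dock2 and Dock5 as partners of ELMO scaffold proteins. Dock8 and the zizimins Dock9, Dock10 and Dock11 act on Cdc42. In lymphocytes Dock2 is known for its part in migration toward chemokines, and Dock8 for its part in the immune synapse and in lasting antibody responses.

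The 8 DOCK genes Dock1, Dock2, Dock4, Dock5, Dock8, Dock9, Dock10 and Dock11 were followed across all conditions of the study. Members were taken by gene name from the spots of the array, which held 61307 probes for 50090 gene names. The 8 genes had 19 of these probes, 14 of them bright enough to be tested, and the probe of each gene with the highest mean signal over the 12 arrays, called the brightest below, stood for the gene. This brightness, and the number of arrays on which a probe was well above background, are the measured values the probes were chosen by, and are given only as a description. The genes themselves were taken by name with their pattern in these data already seen.

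Resting B (RB) cells are small B cells that have not been activated. They came from spleens of 6 weeks old BALB/c mice by negative selection against CD43, so that cells bearing CD43 were removed. The labels call the mice female, and the methods allow either sex. Cells were cultured for 4 h without stimulus, with Pam2CSK4, a synthetic lipopeptide that binds TLR-2, with anti-CD86, with both (TLR2.CD86), with anti-CD40, or with anti-CD40 together with Pam2CSK4. Per the methods, anti-CD86 was a biotinylated antibody that streptavidin crosslinked. Each of the 6 conditions had 2 arrays. The paper's figure captions speak of 2 biological replicates for the array data, without saying whether these were separate animals or cultures. The p-values therefore measure only the spread between these arrays, and how much of it is technical is not known.

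All values are log2 signals relative to the 75th percentile of their array, so that a value of 0 lies at that percentile and a difference of 1 is a doubling. Between 46.6% and 60.6% of probes were well above background on an array. Slide 1 held 8 arrays, both of the unstimulated cells, both of anti-CD40 with Pam2CSK4 and 1 of each other condition. Slide 2 held the other 4 arrays, replicate 2 of Pam2CSK4, anti-CD86, TLR2.CD86 and anti-CD40. With the conditions held equal, the slides differed in 18074 of 31599 probes tested, so that differences from unstimulated cells were also computed with the slide as a block. In the conditions split over slides, slide and replicate number coincide and cannot be told apart.

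All 7 B cell markers, among them Cd79a, Cd79b and Pax5, were well above background on all 12 arrays, and none of the 6 that were never saturated passed the test against unstimulated cells in any condition. Markers of other cells were also measured, and 10 of 11 myeloid, 7 of 8 T cell and 5 of 6 NK cell markers were well above background on all arrays. In RNA of whole cultures, fewer cells of a type and less RNA per cell cannot be told apart.

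The probes themselves are 60 bases long. The 3 probes of Dock8 are shown because they gave different results, the second probe of Dock1 because it repeated part of the result of the brightest one, and the brightest probe of Dock10 because this gene was the member that passed as higher than in unstimulated cells in the fit over 6 conditions. Each is written as the array files give it.
Dock8, brightest probe GT_Mm_44k_52_P321342: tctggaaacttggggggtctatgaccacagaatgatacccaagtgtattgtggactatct
Dock8, probe GT_Mm_44k_51_P483511: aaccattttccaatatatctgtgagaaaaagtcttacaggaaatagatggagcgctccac
Dock8, probe GT_Mm_44k_52_P608156: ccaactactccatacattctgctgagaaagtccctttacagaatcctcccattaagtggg
Dock1, second probe GT_Mm_44k_51_P373163: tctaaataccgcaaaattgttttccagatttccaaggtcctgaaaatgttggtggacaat
Dock10, brightest probe GT_Mm_44k_52_P650028: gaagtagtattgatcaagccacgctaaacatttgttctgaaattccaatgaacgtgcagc

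The files list these probes without a position in the genome. Each of the 5 probes can be read through without a stop codon in at least 1 of its forward frames, which does not place it in a coding exon. The longest run that probes of different DOCK genes shared was tcatacaagcatgca, 15 bases long, in a dim probe of Dock10 and the second probe of Dock11, and other pairs shared at most 10 bases. The brightest probes of both genes do not hold it.

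Dock1, the family member classically tied to engulfment of dying cells, was highest in unstimulated cells and lower under every stimulus. Its brightest probe read -1.49 and -1.37 on the unstimulated arrays, -2.16 and -2.39 with Pam2CSK4, -2.12 and -2.19 with anti-CD86, and -2.42 and -2.81 with TLR2.CD86. With anti-CD40 it read -2.07 and -2.26, and with anti-CD40 and Pam2CSK4 -2.41 and -2.57. Both unstimulated arrays lay above all 10 stimulated ones.

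The fall of Dock1 with TLR2.CD86 was already known when the genes were chosen and is given as a description. It came to -1.18 (SE 0.16, 95% CI -1.55 to -0.81, limma adjusted p = 0.0107), a 2.27-fold lower signal. Dock1 also fell with anti-CD40, by 0.74 (SE 0.16, limma adjusted p = 0.022), and with anti-CD40 and Pam2CSK4, by 1.06 (SE 0.16, limma adjusted p = 0.00401). The differences with Pam2CSK4 (-0.85, limma adjusted p = 0.104) and anti-CD86 (-0.72, limma adjusted p = 0.0603) did not pass. With the slide as a block all 5 passed, at values from -1.07 to -0.62 and limma adjusted p-values from 0.000282 to 0.0131.

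No difference of Dock1 between a combination and one of its single signals passed in the fit over 6 conditions. TLR2.CD86 was -0.34 from Pam2CSK4 (95% CI -0.71 to 0.04, limma adjusted p = 0.543) and -0.46 from anti-CD86 (95% CI -0.83 to -0.09, limma adjusted p = 0.457), and the second of these passed once slides were blocked (limma adjusted p = 0.0409). Anti-CD40 with Pam2CSK4 was -0.21 from Pam2CSK4 (95% CI -0.58 to 0.16, limma adjusted p = 0.465) and -0.32 from anti-CD40 (95% CI -0.69 to 0.05, limma adjusted p = 0.313), and the latter passed at -0.43 once slides were blocked (limma adjusted p = 0.0357). The second probe of Dock1 was -1.05 with TLR2.CD86 (SE 0.25, limma adjusted p = 0.0381) and -0.91 with anti-CD40 and Pam2CSK4 (SE 0.25, limma adjusted p = 0.0397). With anti-CD40 alone it was -0.18 (SE 0.25, limma adjusted p = 0.643), where the brightest probe had passed.

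Leaving out 1 array changed these calls. For Dock1 with TLR2.CD86 the call was lost without either unstimulated array or replicate 2 of TLR2.CD86, with limma adjusted p-values from 0.027 to 0.103 over the 4 arrays left out in turn. With anti-CD40 it was lost without either unstimulated array or replicate 2 of anti-CD40. With anti-CD40 and Pam2CSK4 it held in all 4 cases, with limma adjusted p-values from 0.0257 to 0.0421.

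**Figure D1:**
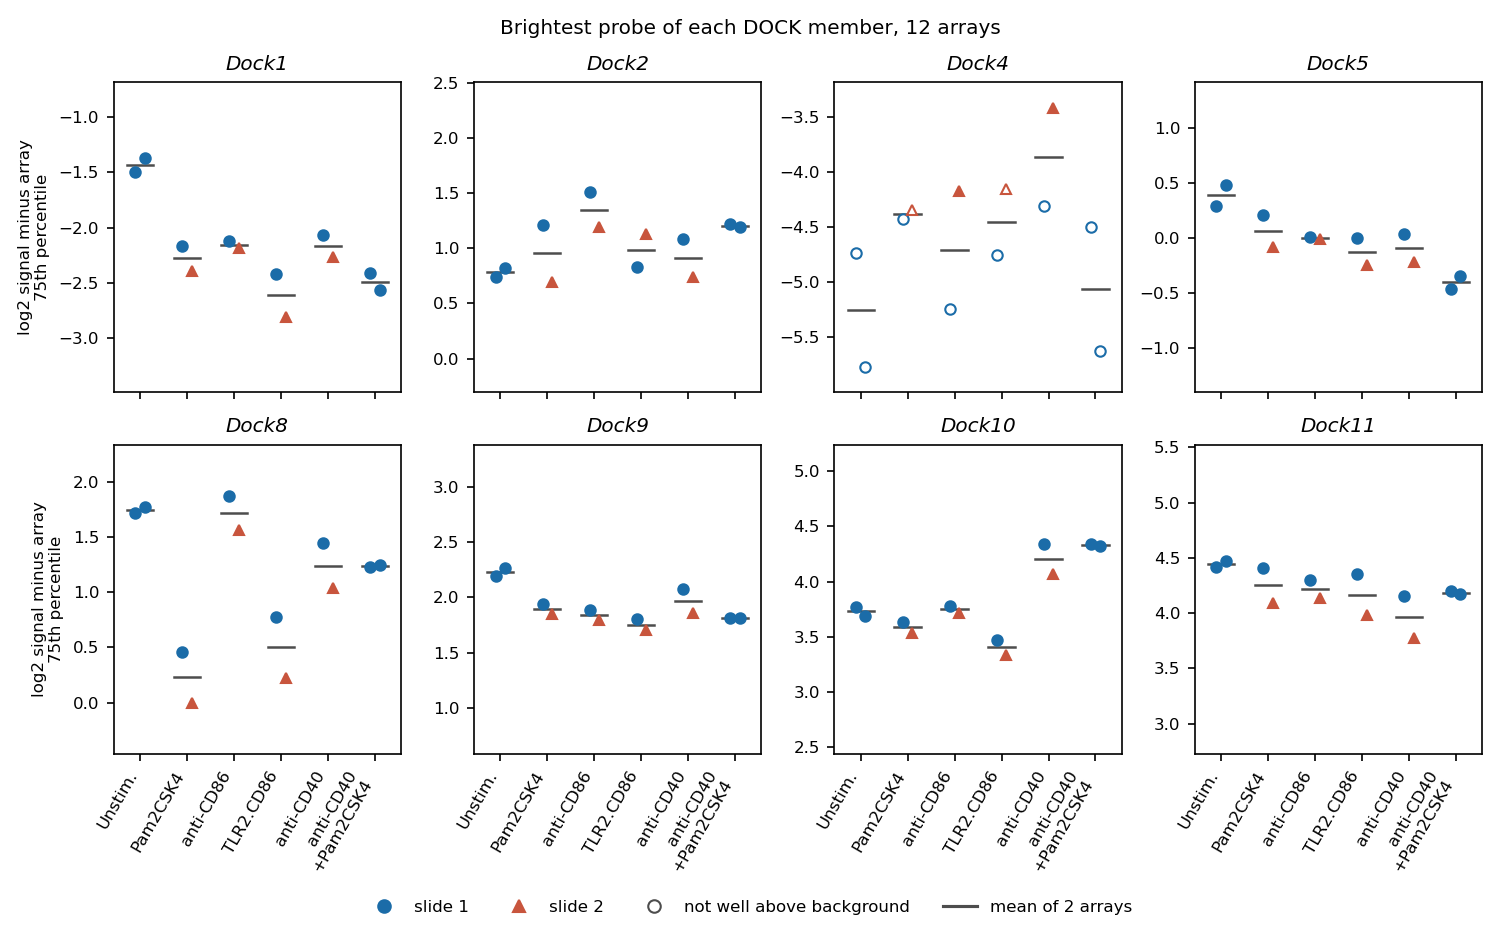
The brightest probe of each of the 8 DOCK members (panels), with the log2 signal minus the 75th percentile of the array on the vertical axis and the 6 conditions on the horizontal axis. Points are single arrays by slide, open where not well above background, lines are means of 2 arrays, and every panel spans the same number of log2 units: Dock1 is highest in unstimulated cells, Dock8 is lowest with Pam2CSK4 and TLR2.CD86, and Dock10 is highest in both anti-CD40 conditions.

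Dock8 had the widest range of condition means, 1.51 log2 units, and separated the conditions with Pam2CSK4 but without anti-CD40 from the rest. Its brightest probe read 1.72 and 1.77 in unstimulated cells and 1.87 and 1.57 with anti-CD86. It read 0.46 and 0.00 with Pam2CSK4, and 0.78 and 0.23 with TLR2.CD86. With anti-CD40 it read 1.44 and 1.04, and with anti-CD40 and Pam2CSK4 1.23 and 1.25. All 4 arrays given Pam2CSK4 without anti-CD40 lay below the other 8.

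With TLR2.CD86 this probe fell by 1.24 (SE 0.24, 95% CI -1.79 to -0.69, limma adjusted p = 0.0226), 2.37-fold. With Pam2CSK4 alone the value was -1.51 (SE 0.24, 95% CI -2.06 to -0.97), whose limma adjusted p of 0.0698 missed the threshold in a comparison where few probes passed. Both passed in the slide fit, at -1.03 (limma adjusted p = 0.000691) and -1.30 (limma adjusted p = 0.0019). With anti-CD86 alone the value was -0.03 (95% CI -0.57 to 0.52, limma adjusted p = 0.96), and its sign turned with the slide as a block (0.19, limma adjusted p = 0.0955). With anti-CD40 it was -0.51 (limma adjusted p = 0.177) and with anti-CD40 and Pam2CSK4 -0.50 (limma adjusted p = 0.179). Neither passed, but both did with the slide as a block, beside 37.1% and 47.4% of probes. Every array with anti-CD40 lay below both unstimulated ones.

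Anti-CD40 changed what Pam2CSK4 did to this probe only in some of the fits. The signal with both was 1.01 above that with Pam2CSK4 alone (SE 0.24, 95% CI 0.46 to 1.56, limma adjusted p = 0.0352), and 0.74 above TLR2.CD86 (SE 0.24, limma adjusted p = 0.0854), which passed at 0.52 once slides were blocked (limma adjusted p = 0.00232). TLR2.CD86 was -1.22 from anti-CD86 (95% CI -1.76 to -0.67, limma adjusted p = 0.16), and this passed with slides blocked (limma adjusted p = 0.000852). The interaction of CD40 and TLR2, which is the effect of Pam2CSK4 in the presence of anti-CD40 minus its effect without, was 1.52 (SE 0.34, limma adjusted p = 0.0924), beside 1.15% of probes that passed. Blocking on the slide gave 1.08 (limma adjusted p = 0.00447), beside 8.41% of probes. No member passed the limma test for the interaction of CD86 and TLR2, beside 0.019% of all probes, and none had an unadjusted p under 0.05. When slides were blocked, none passed either, beside 0.234% of probes. Then 2 were below that unadjusted p, for which no share of all probes is given.

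The other probes of Dock8 did not follow the brightest one. Probe GT_Mm_44k_51_P483511, also well above background on all 12 arrays, was 0.05 with Pam2CSK4 (95% CI -0.23 to 0.32, limma adjusted p = 0.872) and 0.10 with TLR2.CD86 (95% CI -0.18 to 0.37, limma adjusted p = 0.615). Probe GT_Mm_44k_52_P608156, well above background on 9 arrays, was 0.13 (95% CI -0.35 to 0.61) and 0.43 (95% CI -0.05 to 0.91). The intervals of the brightest probe lie entirely below both, and the difference between probes was not tested. Every change given for Dock8 is therefore that of 1 of its 3 probes. The call with TLR2.CD86 was also lost without either unstimulated array or replicate 2 of TLR2.CD86 (limma adjusted p-values from 0.0421 to 0.144 over the 4 arrays). That of anti-CD40 with Pam2CSK4 against Pam2CSK4 was lost when any of 7 arrays was left out, both of that condition, replicate 2 of Pam2CSK4, and both of the unstimulated cells and of anti-CD86, which enter only through the shared spread.

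**Figure D2:**
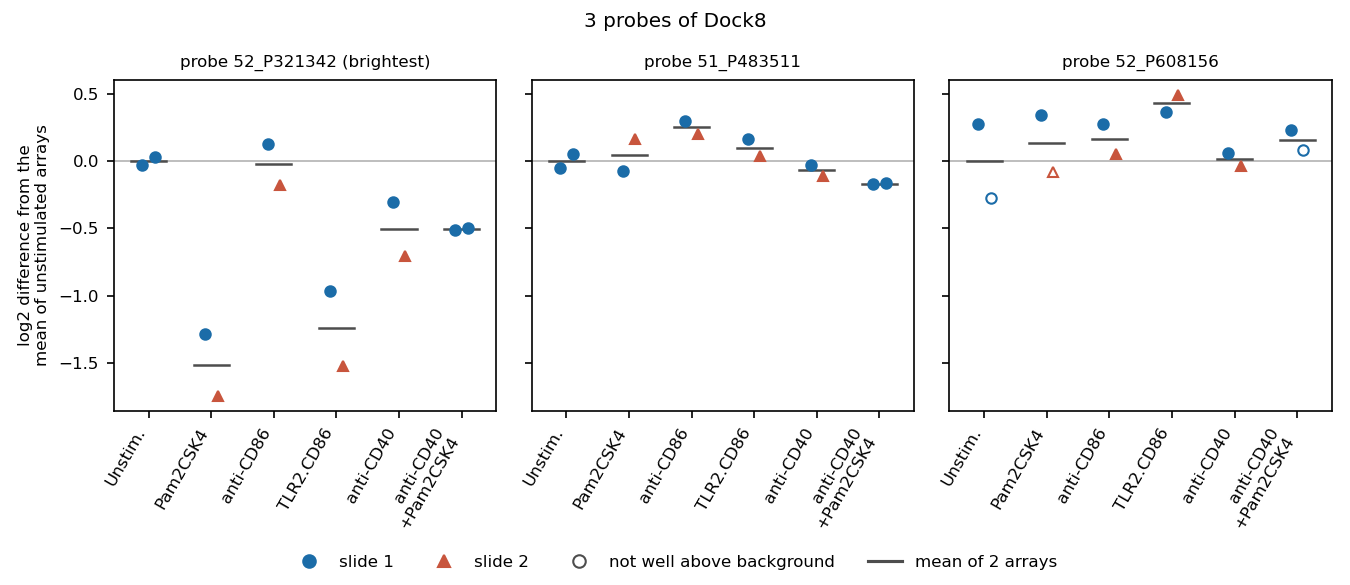
The 3 probes of Dock8 (panels), as log2 differences of each array from the mean of the unstimulated arrays, over the 6 conditions. Points are single arrays by slide, open where not well above background, and lines are means of 2 arrays: the brightest probe is -1.51 with Pam2CSK4 and -1.24 with TLR2.CD86, where the other probes are between 0.05 and 0.43.

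Dock10, which activates Cdc42 and is known as a gene that interleukin-4 raises in B cells, was the only member that passed as higher than in unstimulated cells in the fit over 6 conditions. Its brightest probe read 3.77 and 3.69 in unstimulated cells, 3.64 and 3.54 with Pam2CSK4, 3.78 and 3.72 with anti-CD86, and 3.47 and 3.34 with TLR2.CD86. It read 4.34 and 4.07 with anti-CD40 and 4.34 and 4.32 with anti-CD40 and Pam2CSK4. All 4 arrays with anti-CD40 lay above the other 8, and both arrays of TLR2.CD86 lay below all others.

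The rise was 0.48 with anti-CD40 (SE 0.12, 95% CI 0.19 to 0.76, limma adjusted p = 0.0361) and 0.60 with anti-CD40 and Pam2CSK4 (SE 0.12, 95% CI 0.32 to 0.88, limma adjusted p = 0.0131), 1.39-fold and 1.52-fold. When arrays were scaled by their median in place of the 75th percentile, the value with anti-CD40 turned to -0.09 (limma adjusted p = 0.905), where the median of all probes was -0.58. Between the combined stimuli, Dock10 was 0.92 higher with anti-CD40 and Pam2CSK4 than with TLR2.CD86 (SE 0.12, 95% CI 0.64 to 1.21, limma adjusted p = 0.0038). This call held when any 1 of the 4 arrays was left out (limma adjusted p-values from 0.0156 to 0.0388).

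Against Pam2CSK4 alone, adding anti-CD40 raised Dock10 by 0.74 (SE 0.12, limma adjusted p = 0.00954). With TLR2.CD86 the difference from unstimulated cells was -0.32 (SE 0.12, limma adjusted p = 0.12), which passed only in fits that blocked on the slide or on the replicate number (-0.25 and limma adjusted p = 0.0299 for the slide). The call with anti-CD40 held only when an array of TLR2.CD86 or replicate 2 of anti-CD40 was the one left out, and was lost without any of the other 9. That with anti-CD40 and Pam2CSK4 was lost whichever of its 4 arrays was left out (limma adjusted p-values from 0.0719 to 0.102). That against Pam2CSK4 was lost without either array of anti-CD40 with Pam2CSK4 or replicate 2 of Pam2CSK4. The second probe of Dock10 was well above background on 3 arrays and was not tested.

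Dock5 and Dock9, an ELMO partner that acts on Rac and a zizimin that acts on Cdc42, were lower under every stimulus by smaller amounts. Dock5 read 0.29 and 0.48 in unstimulated cells, 0.00 and -0.25 with TLR2.CD86, and -0.46 and -0.35 with anti-CD40 and Pam2CSK4. The other 6 arrays lay between -0.22 and 0.21, and both unstimulated arrays lay above all others. Dock5 fell by 0.79 with anti-CD40 and Pam2CSK4 (SE 0.16, limma adjusted p = 0.0112) and was -0.51 with TLR2.CD86 (SE 0.16, limma adjusted p = 0.0719). Its second probe was -0.09 with anti-CD40 and Pam2CSK4 (SE 0.17, limma adjusted p = 0.771).

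Dock9 read 2.20 and 2.26 in unstimulated cells, 1.80 and 1.70 with TLR2.CD86, and 1.81 and 1.81 with anti-CD40 and Pam2CSK4. The other 6 arrays lay between 1.80 and 2.08, again below both unstimulated ones. Dock9 fell by 0.48 with TLR2.CD86 (SE 0.11, limma adjusted p = 0.0397) and by 0.42 with anti-CD40 and Pam2CSK4 (SE 0.11, limma adjusted p = 0.0392). The second probe of Dock9 was -0.57 (SE 0.25, limma adjusted p = 0.164) and -0.43 (SE 0.25, limma adjusted p = 0.265) in the same comparisons.

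Both calls of Dock9 were lost whichever of their own 4 arrays was left out, with limma adjusted p-values from 0.0717 to 0.214 for TLR2.CD86 and from 0.147 to 0.199 for anti-CD40 with Pam2CSK4. Leaving out an array of Pam2CSK4 or anti-CD86 ended both calls as well, and an array of anti-CD40 with Pam2CSK4 the first. The call of Dock5 was lost without either array of anti-CD40 with Pam2CSK4 or replicate 2 of the unstimulated cells. Blocked by slide, Dock9 passed in all 5 comparisons with unstimulated cells and Dock5 in 3 of them.

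Dock2 and Dock11, the lymphocyte Rac activator and a zizimin found in B cells, passed no comparison with unstimulated cells. Dock2 ranged from 0.70 to 1.51 over the 12 arrays, and its largest difference was 0.57 with anti-CD86 (95% CI 0.09 to 1.05, limma adjusted p = 0.159), which passed with the slide as a block (0.68, limma adjusted p = 0.0385). The second probe of Dock2 was 0.75 with TLR2.CD86 (limma adjusted p = 0.1), where the brightest probe was 0.20. Dock11 ranged from 3.78 to 4.48, highest in unstimulated cells, and its largest difference was -0.48 with anti-CD40 (95% CI -0.90 to -0.06, limma adjusted p = 0.109). Blocked by slide that difference was -0.33 (limma adjusted p = 0.0131). With anti-CD40 and Pam2CSK4 Dock11 was -0.26 (limma adjusted p = 0.367), which also passed with the slide as a block, beside 47.4% of probes. The second probe of Dock11, well above background on all 12 arrays, had means of 0.59 in unstimulated cells and 0.09 with anti-CD40 and Pam2CSK4.

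Dock4, a Rac and Rap exchange factor, was not tested. Its brightest probe was well above background on 2 of 12 arrays, 1 of anti-CD86 and 1 of anti-CD40, both on slide 2, and its other probes on none. Its signals lay between -5.76 and -3.42 and are given without a comparison.

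Counted over the 7 members tested, 0 passed with Pam2CSK4, where 0.136% of all 31599 probes passed, and 0 with anti-CD86, where 2.14% passed. At an unadjusted p under 0.05 these counts were 3 and 4. The share of all probes under that unadjusted p is not given, so these counts cannot be read as an excess. Blocking on the slide made both counts at the adjusted threshold 3, beside 10.8% and 28.3% of probes. With TLR2.CD86 3 members passed, Dock1, Dock8 and Dock9, all lower, beside 10.6% of all probes and 7.23% that were lower. With anti-CD40 Dock1 fell and Dock10 rose, 2 members beside 16.7% of probes. With anti-CD40 and Pam2CSK4 Dock1, Dock5 and Dock9 fell and Dock10 rose, 4 members beside 18.2% of probes, of which 9.65% fell and 8.52% rose.

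The median difference of the 7 members was -0.48 with TLR2.CD86 and -0.42 with anti-CD40 and Pam2CSK4, beside -0.03 and 0.01 over all probes tested. All these comparisons share the unstimulated arrays, so that a high value there lowers every one of them. In the fit with the slide, 5 members passed with TLR2.CD86, beside 34.9% of probes, 6 with anti-CD40, beside 37.1%, and 6 with anti-CD40 and Pam2CSK4, beside 47.4%. When arrays were scaled by their median, no member passed limma's test against unstimulated cells. With TLR2.CD86 2 then had an unadjusted p under 0.05, again without the share of all probes beside it. That scaling moved the median of all probes from -0.03 to -0.32 with TLR2.CD86 and the share of called probes that were higher from 31.9% to 62.9%. Between stimuli, Dock8 and Dock10 were higher with anti-CD40 and Pam2CSK4 than with Pam2CSK4, 2 members beside 9.91% of probes, and Dock10 was higher than with TLR2.CD86, 1 member beside 12.2%. No member differed between TLR2.CD86 and Pam2CSK4 in limma, where 0.0633% of probes passed, and none had an unadjusted p under 0.05 there. Against anti-CD86 none passed either, beside 0.225% of probes. There 3 members, Dock1, Dock8 and Dock10, had an unadjusted p under 0.05 and passed once slides were blocked. The share of all probes is given neither for that unadjusted p nor for the slide fit of this comparison. Within slide 1, TLR2.CD86 against unstimulated cells was -0.99 for Dock1, -0.97 for Dock8 and -0.43 for Dock9. Slide 1 held a single TLR2.CD86 array, assumed there to vary like the conditions with 2 arrays, and slide 2 held no unstimulated array.

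In the moderated F test over the 6 conditions Dock10 (limma adjusted p = 0.00846), Dock8 (limma adjusted p = 0.0127) and Dock1 (limma adjusted p = 0.0136) passed, beside 20.1% of all probes. Dock5 (limma adjusted p = 0.0678), Dock9 (limma adjusted p = 0.0992), Dock2 and Dock11 did not. The methods' one way test on the same values called the same 3 members, beside 18.2% of probes.

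**Figure D3:**
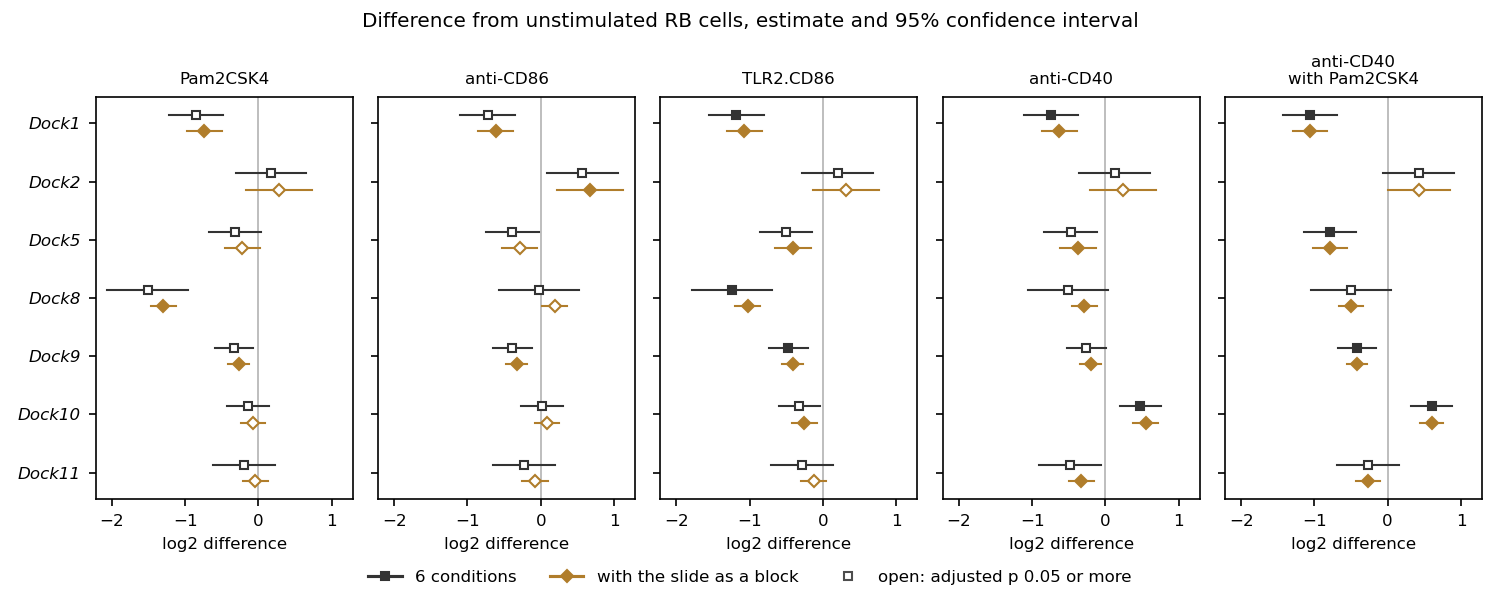
Log2 differences of the 7 tested DOCK members (rows) from unstimulated RB cells under each of the 5 stimuli (panels), with 95% confidence intervals of the single probe. Squares are the fit over 6 conditions and diamonds the fit with the slide as a block, filled where the limma adjusted p was under 0.05: Dock1 lies below 0 in every panel, Dock8 furthest below with Pam2CSK4 and TLR2.CD86, and Dock10 above 0 with anti-CD40.

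Of other genes of the family, Dock6, well above background on 7 arrays, passed no comparison with unstimulated cells. Dock3 was well above background on 2 arrays and was not tested.

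In the comparisons in which DOCK genes fell, some markers of other cells fell and a few rose. With TLR2.CD86 5 of the 10 unsaturated myeloid markers fell, Csf1r, Emr1, Itgam, S100a8 and Mpo, by 0.58 to 1.35, and none rose. Over all 10 unsaturated myeloid markers the summed signal, on the log2 scale, was 8.33 to 8.34 in unstimulated cells. It was 7.45 to 7.62 with TLR2.CD86 and 7.76 to 7.81 with anti-CD40 and Pam2CSK4. The summed signal lay between 7.47 and 7.98 in the other conditions.

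Of the 3 platelet markers Pf4 and Gp9 fell with TLR2.CD86, of 6 NK cell markers Gzma and Klrb1c, and of 8 T cell markers Thy1. Thy1 was -0.75 there, but Cd4 was 0.87 higher and did not pass (limma adjusted p = 0.0501). Cd3e was 0.20 higher, and the median of the 8 T cell markers was -0.35. Cela1, a marker of exocrine pancreas, also fell with TLR2.CD86, by 0.98 (limma adjusted p = 0.0389). With anti-CD40 and Pam2CSK4 the same 5 myeloid markers fell, by 0.46 to 0.83, with Pf4 and Klrb1c, and with anti-CD40 Emr1, Mpo, S100a8, Pf4, Gzma and Klrb1c fell. Col1a2, a stromal marker, was 1.38 higher with TLR2.CD86 (limma adjusted p = 0.0302). The muscle gene Acta1 was 1.41 higher with anti-CD40 (limma adjusted p = 0.0305), where Tnnt3 was 0.82 higher and did not pass (limma adjusted p = 0.0589). With anti-CD40 and Pam2CSK4 the muscle gene Tnnt3 was 1.23 higher (limma adjusted p = 0.013), where Acta1 was 1.12 higher and did not pass (limma adjusted p = 0.0581). The part of these cells in the falls of the DOCK genes was not tested. The summed signal of the 6 unsaturated B cell markers lay between 7.15 and 7.73 on all arrays. The liver gene Alb was 5.15 lower with anti-CD40 and Pam2CSK4 than in unstimulated cells (SE 0.31, limma adjusted p = 7.12e-05). Apoa1, also a liver gene, was 1.34 lower there (limma adjusted p = 0.00751). The summed signal of the liver markers was -2.29 to -1.66 in that condition and between 1.38 and 2.30 on all other arrays. Why that condition differed in liver RNA was not tested.

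The genes whose brightest probe followed Dock1 most closely over the 12 arrays were 5730419I09Rik (Pearson r = 0.986), Havcr2 (r = 0.978) and Dntt (r = 0.971), out of 15111 genes well above background on at least 10 arrays. After removal of slide means they were 5730419I09Rik (r = 0.985), Vpreb1 (r = 0.979) and Gm5435 (r = 0.978). Havcr2 encodes the receptor Tim-3, Dntt the template-independent DNA polymerase of lymphoid precursors, and Vpreb1 a part of the surrogate light chain of precursor B cells. For Dock8 they were Arl6ip5 (r = 0.977), 9630025I21Rik (r = 0.936) and G630025P09Rik (r = 0.93), and after removal of slide means Arl6ip5 (r = 0.972), Klk1b3 (r = 0.954) and Zfp472 (r = 0.947). These are the highest of many correlations over arrays that share conditions, and are given as a description.

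Rac and Cdc42 are switched on by exchange factors such as DOCK proteins, switched off by GTPase activating proteins (GAPs), held in the cytosol by GDP dissociation inhibitors (GDIs), and act through effectors that shape actin. Of 75 genes of this pathway on the array outside the DOCK family, 68 were tested. With TLR2.CD86 0 rose and 9 fell, at a median of -0.19, beside 10.6% of all probes called and a median of -0.03. With anti-CD40 3 rose and 15 fell, at a median of -0.34, beside 16.7% of probes and a median of -0.01. With anti-CD40 and Pam2CSK4 2 rose and 13 fell, at a median of -0.18, beside 18.2% and 0.01. With Pam2CSK4 none of the 68 passed in limma and with anti-CD86 only Arhgap15 did, and with the slide as a block 10 and 20 passed, beside 10.8% and 28.3% of probes.

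Among 11 tested ELMO and adaptor partners, Nck2, an adaptor that links receptors to actin, fell with TLR2.CD86 by 0.57 (SE 0.14, limma adjusted p = 0.0421). With anti-CD40 and Pam2CSK4 Nck2 fell by 1.15 (SE 0.14, limma adjusted p = 0.00169) and Lrch1, a binding partner of Dock8, by 0.54 (SE 0.12, limma adjusted p = 0.0158). Elmo1, the scaffold of Dock2, passed in neither comparison. It read 1.27 and 1.06 in unstimulated cells, 0.25 and 1.02 with TLR2.CD86, and 0.21 and 0.41 with anti-CD40 and Pam2CSK4. Among 8 GTPases Rap1a and Rap1b fell with TLR2.CD86, by 0.54 and 0.53, and Rap1a with anti-CD40 and Pam2CSK4, by 0.55. Rac1, Rac2 and Cdc42, the targets of the DOCK proteins, were not called in these comparisons. Cdc42 was 0.84 higher with anti-CD40 and Pam2CSK4 than with TLR2.CD86 (SE 0.16, limma adjusted p = 0.015).

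Of 15 other exchange factors for Rac and Cdc42, Tiam1, Fgd4 and Vav3 fell with TLR2.CD86, by 0.67, 0.66 and 0.54. Swap70, an exchange factor of activated B cells, read 6.23 and 6.25 in unstimulated cells, 6.32 and 5.96 with TLR2.CD86, and 7.72 and 7.78 with anti-CD40 and Pam2CSK4. Its rise with anti-CD40 and Pam2CSK4 was 1.52 (SE 0.19, limma adjusted p = 0.00169), which made it the only one of the 15 that rose there. The spot was saturated on 1 array, of anti-CD40. Swap70 was also 1.61 higher there than with TLR2.CD86 (SE 0.19, limma adjusted p = 0.00224). Tiam2 fell by 0.91 with anti-CD40 and Pam2CSK4 (SE 0.21, limma adjusted p = 0.0196).

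Of 15 GAPs and GDIs, Arhgap15 and Racgap1 fell with TLR2.CD86, by 0.96 (SE 0.12, limma adjusted p = 0.009) and 0.90 (SE 0.12, limma adjusted p = 0.0107). Both fell with anti-CD40 and Pam2CSK4 too, Racgap1 by 1.05 and Arhgap15 by 0.87. Of 19 effectors only Cdc42ep3, a Cdc42 binding protein, fell with TLR2.CD86, by 0.74 (SE 0.12, limma adjusted p = 0.0163).

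The largest change of the pathway was in Abi3, a subunit of the complex through which Rac drives actin branching. It read 3.31 and 3.27 in unstimulated cells, 3.31 and 2.84 with TLR2.CD86, 2.09 and 1.75 with anti-CD40, and 0.10 and 0.01 with anti-CD40 and Pam2CSK4. The last pair lay below all other arrays. The fall was 3.24 (SE 0.19, limma adjusted p = 6.64e-05), and Cdc42ep3 fell by 1.36 in the same comparison (SE 0.12, limma adjusted p = 0.000487). Pak4, a kinase that Cdc42 binds, was the other pathway gene that rose there beside Swap70, by 1.02 (SE 0.12, limma adjusted p = 0.00155).

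**Figure D4:**
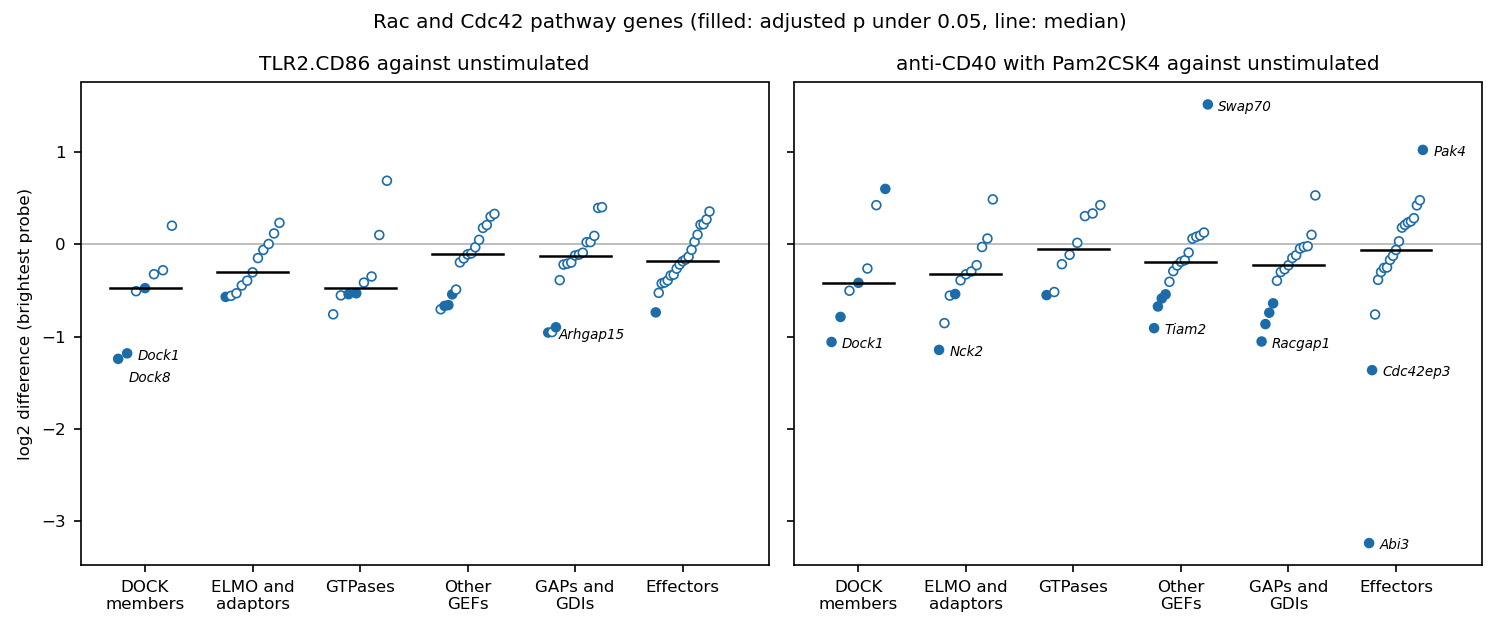
Log2 differences from unstimulated cells of the 7 tested DOCK members and of 68 other genes of the Rac and Cdc42 pathway by role, with TLR2.CD86 (left) and with anti-CD40 and Pam2CSK4 (right). Each point is the brightest probe of a gene, filled where the limma adjusted p was under 0.05, and lines are medians: 9 genes outside the DOCK family fell with TLR2.CD86, and Swap70 (1.52) and Abi3 (-3.24) lie furthest from 0 with anti-CD40 and Pam2CSK4.

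Promoter sequence was at hand for 7 of the 8 members, Dock5 apart, as 10 windows from 250 bases before to 50 bases after a transcription start (RefSeq, build GRCm38.p6). A window each of Dock1, Dock8 and Dock10 is shown because these genes passed the test over all conditions. Dock10 had a second window, chr1:80665303-80665602, which is not shown. Capitals mark the letters CGGAAG, a core of ETS factor sites, on either strand.
Dock1, chr7:134670437-134670736, plus strand: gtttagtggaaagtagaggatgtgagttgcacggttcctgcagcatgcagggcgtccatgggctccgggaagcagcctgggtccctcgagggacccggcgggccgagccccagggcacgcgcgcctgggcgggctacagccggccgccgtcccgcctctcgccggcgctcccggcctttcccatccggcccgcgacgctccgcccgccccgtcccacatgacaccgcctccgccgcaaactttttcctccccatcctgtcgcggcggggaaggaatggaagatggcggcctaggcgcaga
Dock8, chr19:24999279-24999578, plus strand: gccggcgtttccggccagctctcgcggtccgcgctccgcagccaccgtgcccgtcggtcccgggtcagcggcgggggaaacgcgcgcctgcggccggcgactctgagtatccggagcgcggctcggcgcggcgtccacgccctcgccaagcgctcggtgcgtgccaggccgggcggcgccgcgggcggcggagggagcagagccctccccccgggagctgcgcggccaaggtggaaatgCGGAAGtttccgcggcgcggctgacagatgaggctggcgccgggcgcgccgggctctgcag
Dock10, chr1:80758504-80758803, minus strand: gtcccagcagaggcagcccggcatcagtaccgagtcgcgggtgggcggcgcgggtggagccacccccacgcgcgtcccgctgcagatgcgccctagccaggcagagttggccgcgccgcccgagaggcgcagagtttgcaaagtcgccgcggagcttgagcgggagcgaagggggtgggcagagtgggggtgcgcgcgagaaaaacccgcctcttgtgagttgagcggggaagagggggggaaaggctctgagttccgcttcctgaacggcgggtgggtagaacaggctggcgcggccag

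CGGAAG was in 3 of the 10 windows, those of Dock2, Dock4 and Dock8, beside 16.9% of 32851 promoter windows of the same length. The windows shown hold 34, 52 and 32 CpG pairs in the order printed, and the window of Dock10 not shown holds 5, beside a median of 7 over all windows. These letters say nothing of binding in RB cells.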

How the data were processed

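RNA of RB cells was labelled with 1 dye (Cy3) and hybridised to 12 Agilent arrays, 2 for each of 6 conditions. Signal intensity per spot was deposited as scanner output of Agilent Feature Extraction 10.5.1.1, in which the software had subtracted the background. The authors' log2 table of the same arrays equals log2 of that intensity less 1 constant per array, and served as an alternative.

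The log2 processed signal of each array was reduced by its 75th percentile, spots of 1 probe were averaged, and control spots were left out. In 31669 probes some condition had the probe well above background on each of its arrays. Of these, 70 lacked a value on some array because of spots flagged as outliers and were left out. The remaining 31599 were fitted over 6 conditions with limma 3.58.1 (R 4.3.3). Their p-values were adjusted over all of them by Benjamini-Hochberg, with a threshold of 0.05. Confidence intervals are those of single probes, unadjusted, and the number of arrays limits the precision. Tables were made with Python 3.11.15 and pandas 2.3.3.

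Alternatives were other normalizations (median, quantile), normexp background correction, no filter on dim probes, slide and replicate number as a block, slide 1 alone, the methods' one way test, other probes of a gene, and leaving out each array. The fit over 6 conditions and its F test were tested on simulated data that held no slide difference. The fits with a block and within slide 1 were not tested in this way. No column of values was left out for want of a sample.

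All members were named by their brightest probe. Of each pathway list, up to 4 genes past the threshold with the largest change were named for TLR2.CD86 and up to 2 for anti-CD40 with Pam2CSK4. Elmo1, Rac1, Rac2, Cdc42 and Pak4 were named outside this rule, after their values were seen. For likeness, the 2 members with the widest range of condition means, among those whose 2 arrays were well above background in 3 or more conditions, were taken, with 3 genes each. The members and gene lists were chosen with earlier results of these data known. Replicate numbers came from the labels, and samples were grouped by their labelled treatment. Some items are not reported here.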

Additional observations from a re-analysis of the deposited data

Results flagged for a closer look

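The effect of Pam2CSK4 on the brightest probe of Dock8 was compared between cells with and without anti-CD40, and the difference passed in 3 of 16 alternative settings and not in the fit over 6 conditions. With the slide as a block the difference of the effects was 1.08 on the log2 scale (limma adjusted p = 0.00447), and without it 1.52 (limma adjusted p = 0.0924). The other probes of Dock8 gave -0.15 (limma adjusted p = 0.581) and 0.01 (limma adjusted p = 0.978) for the same difference.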

How the results depend on the processing

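Values are given in the order Pam2CSK4, anti-CD86, TLR2.CD86, anti-CD40 and both anti-CD40 and Pam2CSK4, each set against unstimulated cells, and last for the comparison of the combined stimuli, anti-CD40 and Pam2CSK4 against TLR2.CD86. The cause of the differences between settings was not tested.

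Of the 7 members tested, 0, 0, 3, 2, 4 and 1 passed as reported. With median normalization 0 passed in each of the last 4, and with no filter on dim probes 0, 0 and 1 with TLR2.CD86, anti-CD40 and both anti-CD40 and Pam2CSK4. With quantile normalization 1 passed with anti-CD86 and 1 with anti-CD40, and with normexp 1 with Pam2CSK4 and 2 against TLR2.CD86. With the slide as a block 3, 3, 5, 6, 6 and 3 passed, within slide 1 alone 7 with anti-CD40 and Pam2CSK4 and 2 against TLR2.CD86. Here and below, arrays left out are those of the conditions compared. Leaving out 1 array gave 0, 0, 0 to 2, 0 to 1, 1 to 2 and 1.

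Of all probes tested, 0.136%, 2.14%, 10.6%, 16.7%, 18.2% and 12.2% passed as reported. Median normalization gave 0.307%, 0.225%, 0.418%, 1.1%, 1.47% and 0.867%, and no filter gave 0.0131%, 0%, 0.0425%, 1.74%, 4.02% and 1.99%. Quantile normalization gave 0.332% and 5.53% in the first 2, and normexp 0.291% and 4.45%. The slide as a block gave 10.8%, 28.3%, 34.9%, 37.1%, 47.4% and 34.5%. Slide 1 alone gave 0%, 0.0127% and 20.1% in the first 3, and 40.3% and 20.6% in the last 2. Leaving out 1 array gave 0.0127% to 0.117%, 0% to 0.161%, 0.0918% to 3.71%, 1.82% to 23.0%, 6.06% to 7.33% and 2.99% to 7.98%. Of the probes that passed for the combined stimuli, 60.7% were higher with anti-CD40 and Pam2CSK4 as reported and 43.4% with median normalization. With no filter the higher share was 57.7% with TLR2.CD86 and 59.3% with anti-CD40, from 31.9% and 36.8%.

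Of 68 pathway genes, 0, 1, 9, 18, 15 and 10 passed as reported. Median normalization gave 0, 0, 2, 1 and 1 from anti-CD86 on, and no filter 0, 0, 6, 8 and 2. Quantile normalization gave 4 with anti-CD86, and normexp 3 with anti-CD86 and 14 with TLR2.CD86. The slide as a block gave 10, 20, 29, 35, 40 and 23. Slide 1 alone gave 0 with anti-CD86, 17 with TLR2.CD86, 36 with anti-CD40 and Pam2CSK4 and 17 against TLR2.CD86. Leaving out 1 array gave 0, 0, 0 to 3, 2 to 23, 8 and 2 to 7.

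Replicate numbers showed no pairing of the arrays of unstimulated cells or of anti-CD40 with Pam2CSK4 with any others. In the other 4 conditions replicate 2 was always on slide 2, so that pairing and slide cannot be told apart. Deviations of same-numbered arrays from their condition means correlated between 0.538 and 0.674 among the 4 conditions split over slides and between -0.107 and 0.0666 otherwise. With the replicate number as a block 2, 2, 5, 4 and 4 members passed against unstimulated cells and 2 against TLR2.CD86. Of all probes the replicate block gave 0.756%, 12.6%, 24.5% and 29.8% in the first 4 and 21.2% in the last, and of pathway genes 7, 21 and 29 with anti-CD86, TLR2.CD86 and anti-CD40.

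Signs turned in these cases. With median normalization Dock2 was -0.0225, -0.0888 and -0.44 with Pam2CSK4, TLR2.CD86 and anti-CD40, and Dock10 -0.12 with anti-CD86 and -0.0919 with anti-CD40. Leaving out 1 array moved Dock2 with Pam2CSK4 as far as -0.0857 (without Pam2CSK4 replicate 1) and Dock2 with anti-CD40 between -0.0442 and 0.3003. It moved Dock8 with anti-CD86 between -0.1794 and 0.1286, with 0.0016 without unstimulated replicate 2, and Dock10 with anti-CD86 between -0.0199 and 0.056. Dock8 with anti-CD86 was 0.0354 with quantile normalization, 0.19 with the slide as a block and 0.1286 within slide 1. Other probes of Dock8 gave 0.0452 and 0.13 with Pam2CSK4, 0.25 and 0.16 with anti-CD86, 0.0974 and 0.43 with TLR2.CD86, 0.0119 with anti-CD40 and 0.16 with anti-CD40 and Pam2CSK4. They gave 0.27 for TLR2.CD86 against anti-CD86, -0.21 for anti-CD40 with Pam2CSK4 against Pam2CSK4, -0.27 and -0.27 against TLR2.CD86, and -0.15 for the interaction of CD40 and TLR2. The second probe of Dock11 gave 0.0194 with anti-CD86.

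Median normalization moved the median of all probes to -0.26, -0.19, -0.32, -0.58, -0.10 and 0.22, from -0.07, -0.05, -0.03, -0.01, 0.01 and 0.04. Dock4 was too dim for a test.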
